A study of Mus musculus with 6 samples.

Results

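The cytochromes P450 and the enzymes of detoxification that act beside them were compared between Aire-deficient and wild-type medullary thymic epithelial cells. The set holds every probe set whose single annotated gene symbol starts with Gst, or with Cyp, Fmo, Ces, Ugt, Sult, Aldh or Adh followed by a digit. These are 115 of 12422 non-control probe sets and stand for 88 of the 8251 genes with a probe set of their own: 47 probe sets of 40 Cyp genes, 22 of 15 Gst genes, 18 of 10 Aldh genes, 10 of 9 Sult genes, 6 of 5 Ces genes, 6 of 4 Adh genes, 3 of 2 Fmo genes and 3 of 3 Ugt genes. The symbols alone chose the members, and no measured value did.

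The Aire-deficient group was 3 arrays of B6/129 F2 mice in which both copies of aire, the autoimmune regulator gene, were disrupted, and the wild-type group was 3 arrays of B6/129 F2 mice with an intact gene. In both groups an array measured 1 pool of thymi from 5 mice of both sexes, 3 to 5 weeks old. Cells sorted as CD45-, G8.8+, CDR1int and B7.1hi gave total RNA. After 2 rounds of T7 amplification it was hybridised to a 1-colour oligonucleotide array. Animals within a pool cannot be separated, and the extent of the disruption is not given in the labels. Signals are in arbitrary units after quantile normalization, and values given for a group are geometric means with SDs on the log2 scale (n = 3 arrays).

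Cytochromes P450 are haem-containing monooxygenases that oxidise drugs, plant toxins, steroids, fatty acids, vitamin D and retinoic acid. Flavin monooxygenases, carboxylesterases, alcohol dehydrogenases and aldehyde dehydrogenases oxidise or cleave such compounds as well, and glutathione transferases, glucuronosyltransferases and sulfotransferases then attach a polar group that speeds their removal. Many members are characteristic of liver, gut, skin, lung or steroid-producing glands, and medullary thymic epithelial cells are known for transcribing genes of such tissues. In people with mutations in AIRE, several P450 enzymes are known targets of autoantibodies, among them CYP1A2 in liver and the steroidogenic enzymes CYP11A1, CYP17A1 and CYP21A2.

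Several features of the arrays touch the results below. Beta-actin, whose 3' signal divided by its 5' signal is a sign of RNA quality or amplification, had a ratio of 4.38, 5.75 and 13.4 on Aire-deficient arrays 1 to 3 and 5.42, 95.8 and 13.8 on wild-type arrays 1 to 3, so that wild-type array 2 stood apart. The single Aire probe set gave 202, 297 and 211 in Aire-deficient cells, against 59.9, 96.4 and 138 in wild-type cells (adjusted p = 0.0918 in limma, or 0.0191 with the replicate number as a block). Whether this probe set reads the disrupted stretch is unknown, so it does not check the genotype labels. Summed signals of 18 marker genes of medullary thymic epithelium (22 probe sets) ranged from 7153 to 8288 on Aire-deficient arrays and from 5685 to 6265 on wild-type arrays, with 0 of 18 tested probe sets called. Among them the major histocompatibility gene H2-Ab1 gave 1393, 1118 and 929 in Aire-deficient cells and 779.7, 527 and 676 in wild-type cells (adjusted p = 0.168), and the keratin gene Krt18 gave 219.8, 193 and 126 in Aire-deficient cells and 134, 57.8 and 79.8 in wild-type cells on 1 of its probe sets (0.225). Epcam, which the G8.8 antibody binds, gave 102, 79.8 and 86.9 in Aire-deficient cells and 234, 251 and 130.5 in wild-type cells (0.118, or 0.0315 with the block, where it was lower). The B7.1 gene Cd80 was higher without overlap on 1 of its probe sets (adjusted p = 0.152, or 0.0917 with the block). It gave 8.8, 13.1 and 11.8 in Aire-deficient cells and 3.52, 4.92 and 4.25 in wild-type cells. On the other its mean was higher with overlap (0.482). Ciita, Ctss, H2-Aa, H2-Eb1, Tnfrsf11a and 1 Relb probe set were also higher without overlap. Of these markers only Epcam was lower without overlap. The probe sets of Krt5 and Krt14 and the other one of Krt18 lay under the dim limit defined below on all 6 arrays. For 9 hepatocyte marker genes (11 probe sets) the sums were 66.4 to 91.9 in Aire-deficient cells and 158 to 236 in wild-type cells. Of their 8 tested probe sets 2 were called lower (Fgg and Apoa1), against 1.38% of all tested probe sets. Fga, Fgb (adjusted p = 0.064, or 0.0476 with the block) and 1 probe set of Tdo2 had a lower mean in Aire-deficient cells. The tested Apoa2 probe set, the other one of Tdo2 and Ttr had a higher mean, with overlap. These 3 averaged 8.81, 16.9 and 10.1 in Aire-deficient cells, against 5.17, 10.7 and 9.54 in wild-type cells. Alb, the albumin gene, gave 1.8, 4.25 and 3.08 in Aire-deficient cells, against 12.3, 4.82 and 13.2 in wild-type cells, and Tat and 1 probe set of Apoa2 lay under the limit on all 6 arrays. For 7 granulocyte genes (8 probe sets) the sums were 38.7 to 52.3 in Aire-deficient cells and 184 to 257 in wild-type cells. Of their 5 tested probe sets 4 were called lower, against 1.38% of all tested probe sets. Elane and 1 probe set of Mpo lay under the limit on every array. Prtn3, too dim to test, gave 7.62, 5.53 and 4.73 in Aire-deficient cells and 4.15, 3.78 and 2.27 in wild-type cells, higher without overlap. For 7 genes of dendritic cells and macrophages (11 probe sets) the sums were 223 to 250 in Aire-deficient cells and 268 to 407 in wild-type cells. None of their 6 tested probe sets was called, and with the block Cd14 was lower (adjusted p = 0.0055) and Cd68 higher (0.0239). For the CD45 gene Ptprc the sums were 11.4 to 13.9 in Aire-deficient cells and 10.5 to 11.3 in wild-type cells. Its tested probe set was higher without overlap (adjusted p = 0.586). For marker genes of T cells, B cells, endothelium and fibroblasts the sums overlapped, with 0 calls. With the block 1 probe set of the B-cell gene Pax5 was higher (0.0317) and 1 of Ms4a1 lower (0.0339). The part of these shifts in the results was not tested. In RNA from a pool, fewer cells that carry a transcript and less of it per cell cannot be told apart. Xist, transcribed from the inactive X chromosome, measured 65.7, 179.9 and 65.7 in Aire-deficient cells and 139, 379.5 and 51.5 in wild-type cells. Its level differed between pools of both groups. The Y-linked gene Eif2s3y gave 63.1, 42.4 and 31.5 in Aire-deficient cells and 31.8, 13.9 and 27 in wild-type cells, with overlap (adjusted p = 0.32). Kdm5d and Uty, also Y-linked, lay under the limit on all 6 arrays. What part the sex of the mice had in the results was not tested.

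Detoxification enzymes lay on the lower side in Aire-deficient cells more often than probe sets at large. Summed over all 115 members, the signal was 1649.9, 1456 and 1506 on the Aire-deficient arrays and 2582, 2739 and 2309 on the wild-type arrays. The groups did not overlap, although quantile normalization gives every array the same total over all probe sets. At any size of difference 76 members were lower, 32 higher and 7 at the floor in both groups, that is 66.1% lower, against 5647 of 12422 probe sets, or 45.5%. The median log2 difference was -0.39 over the 115 members and 0.00 over all probe sets, or -0.09 and 0.00 with dim signals raised to the 40th percentile. These shares and medians describe the set and were not tested.

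A probe set was tested if its signal exceeded the dim limit, the 40th percentile of all signals (5.53), on at least 3 of the 6 arrays. Of the members 67 were tested and 48 were not, of which 27 lay under the limit on every array. Of the 67, 6 passed through their 3 wild-type arrays alone, with all Aire-deficient arrays under the limit, and 0 passed through the Aire-deficient arrays alone. The 6 were probe sets of Cyp1a2, Cyp1b1, Cyp11a1, Gstm5, Ces1c and Ugt2b34, and the filter left them no other side than the lower one. In the limma fit over 7768 probe sets 4 members fell at an adjusted p under 0.05, or 5.97% of those tested, against 1.38% of all tested probe sets. They were Gstm3, Cyp1a2, Cyp2b19 and Fmo1. No member rose (0 of 67, against 0.348% of all), and at an unadjusted p under 0.05 the counts were 27 lower (against 7.81% of all) and 1 higher (against 6.44%). Arrays with the same replicate number deviated together, and with that number as a block 12 members fell, or 17.9%, against 3.37% of all tested probe sets, and 1 rose, or 1.49%, against 1.93%. Without reference to a variance model, 20 tested members, or 29.9%, had groups that did not overlap and were lower by 2-fold or more, against 5.27% of all tested probe sets, and 1 was higher, against 3.99%. All 6 members that passed through wild-type arrays alone are among these 20 and among the 27. Cyp1a2 is also among the 4, and Cyp1a2 and Ugt2b34 are among the 12. These counts therefore hold members whose side the filter fixed. Of all tested probe sets 126 passed through wild-type arrays alone and 57 through Aire-deficient arrays alone.

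Of the 4 calls, 3 depended on single arrays. The count of lower members was 2 without Aire-deficient array 1, 2 or 3, 3 without wild-type array 1, and 1 when wild-type array 2 or 3 was left out. Gstm3 was called in each of those 6 fits, Cyp1a2 in 4, Fmo1 in 1 and Cyp2b19 in 0. With the block and without both arrays numbered 2, a fit chosen after seeing the data, 4 members were lower and 0 higher. With a covariate for the beta-actin ratio 4 members were lower as well, but these were Gstm3, Cyp1a2, Gsta2 and Gsto1, while Cyp2b19 (adjusted p = 0.0597) and Fmo1 (0.0557) were no longer called.

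**Figure D1:**
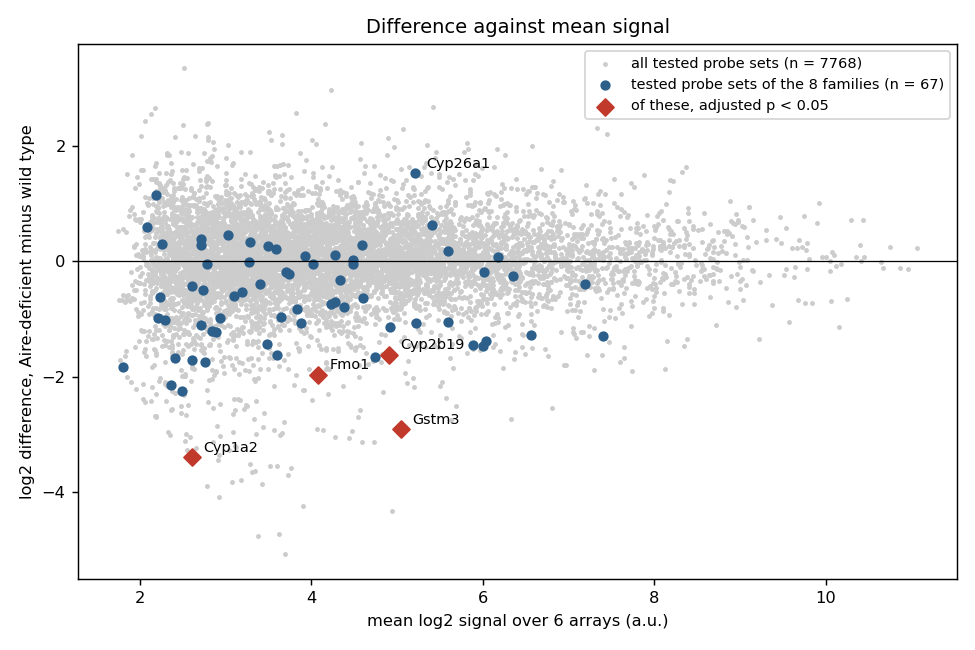
Each point is a tested probe set, with its mean log2 signal over 6 arrays on the horizontal axis and the log2 difference, Aire-deficient minus wild type, on the vertical axis; grey marks all 7768, blue the 67 members and red diamonds the 4 members called at an adjusted p under 0.05. The 4 called members lie below 0 at low to middle signal, and Cyp26a1 is the member farthest above 0.

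**Figure D2:**
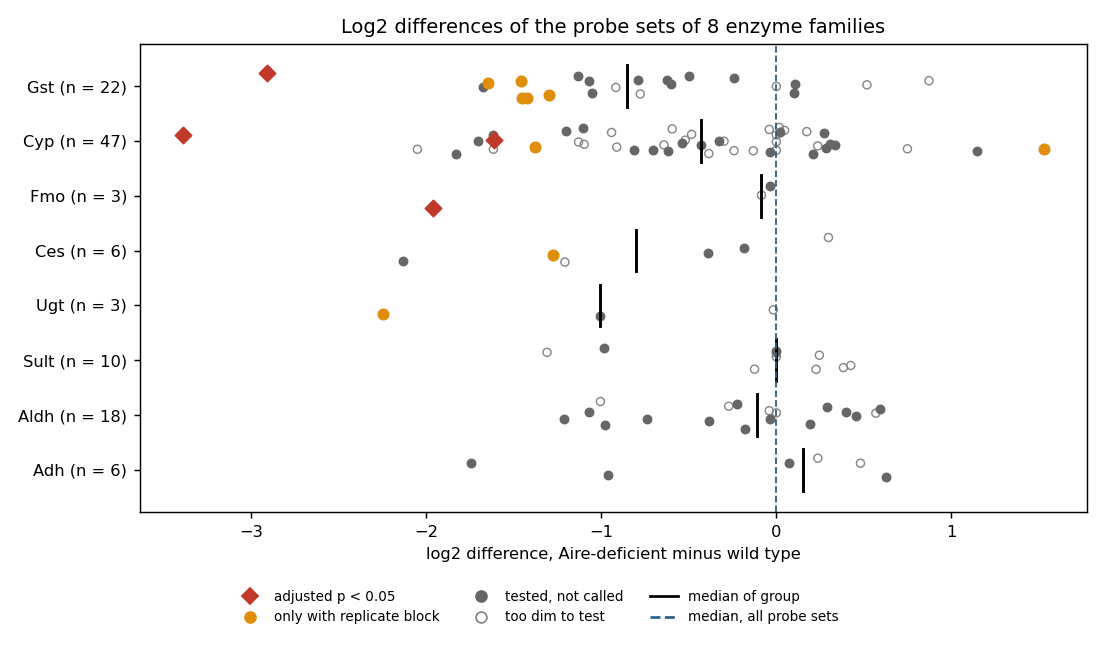
Log2 differences (Aire-deficient minus wild type, horizontal axis) of all 115 probe sets by enzyme family, with black bars at the family medians and a dashed line at 0.00, the median of all 12422 probe sets. Red diamonds passed the limma fit, orange points passed it only with the replicate number as a block, and open circles were too dim to test; the Gst median lies at -0.85 and the Aldh median at -0.11.

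The families differed in where their members lay. The median log2 difference over all probe sets of a family, tested or not, was -0.85 for Gst (17 lower, 4 higher), -0.43 for Cyp (31 lower, 13 higher) and -0.80 for Ces (5 lower, 1 higher). It was -1.01 for the 3 Ugt and -0.08 for the 3 Fmo probe sets. It was -0.11 for Aldh (11 lower, 6 higher), 0.15 for Adh (2 lower, 4 higher) and 0.00 for Sult (4 lower, 4 higher). Over the tested probe sets alone, of which Ugt and Sult had 2 and Ces and Adh 4, the medians were -1.07 for Gst, -0.54 for Cyp, -0.83 for Ces, -1.63 for Ugt, -0.18 for Aldh, -0.45 for Adh and -0.49 for Sult. Over all tested probe sets the median was 0.05. The family medians include members that passed through wild-type arrays alone, 3 of Cyp and 1 each of Gst, Ces and Ugt. The filter fixed the side of these. The 2 tested Fmo probe sets, Fmo1 and Fmo5, are given below. Differences between families were not tested.

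Glutathione transferases, which join glutathione to reactive compounds, held 6 of the 12 members that fell with the block. These were 6 of 17 tested Gst probe sets, against 3.37% of all tested probe sets. The mu class, whose mouse genes lie side by side on chromosome 3 in the order Gstm5, Gstm6, Gstm3, Gstm2 and Gstm1 (RefSeq, GRCm38.p6, with other genes between Gstm5 and Gstm6), carried 3 of these. All 3 are probe sets of f design, which allows binding to several related transcripts, so they may not be 3 separate readings. The bases before the transcription start of the 3 genes concerned are shown here from RefSeq, as GRCm38.p6 chr3:107969175-107969424, minus strand for Gstm3, chr3:108017819-108018068, minus strand for Gstm1, where the downstream of 2 listed starts was taken, and chr3:107895604-107895853, plus strand for Gstm5. Each runs 5′ to 3′ over 250 bases, and capitals mark the core of the xenobiotic response element (GCGTG), of the antioxidant response element (TGACNNNGC) and of the TATA box (TATAAA), searched on both strands.
Gstm3: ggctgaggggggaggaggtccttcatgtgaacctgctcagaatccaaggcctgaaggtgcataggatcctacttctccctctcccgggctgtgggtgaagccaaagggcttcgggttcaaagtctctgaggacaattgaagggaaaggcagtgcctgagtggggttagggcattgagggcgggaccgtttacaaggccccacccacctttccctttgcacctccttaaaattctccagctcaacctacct
Gstm1: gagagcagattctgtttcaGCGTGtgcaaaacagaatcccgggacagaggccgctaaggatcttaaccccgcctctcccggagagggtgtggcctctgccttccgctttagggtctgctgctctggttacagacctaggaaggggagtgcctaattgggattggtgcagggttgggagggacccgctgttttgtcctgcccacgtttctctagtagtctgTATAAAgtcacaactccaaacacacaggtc
Gstm5: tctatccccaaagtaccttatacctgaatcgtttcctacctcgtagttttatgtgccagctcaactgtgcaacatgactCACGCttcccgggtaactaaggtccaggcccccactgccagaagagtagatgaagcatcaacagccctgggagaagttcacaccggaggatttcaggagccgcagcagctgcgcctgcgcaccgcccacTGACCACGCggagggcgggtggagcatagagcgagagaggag
The Gstm3 window holds none of these letters, that of Gstm1 holds 1 GCGTG and a TATAAA at -30 to -25, and that of Gstm5 holds GCGTG at 2 places on the minus strand. At 1 of these, -38 to -34, it lies within the only TGACNNNGC of the 3 windows. No match says only that the letters are not in this window.

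Gstm3 gave the smallest p of all members. Its probe set 97681_f_at measured 13.2, 14.6 and 9.25 on Aire-deficient arrays 1 to 3, against 56.1, 119.5 and 112 on wild-type arrays 1 to 3. The highest Aire-deficient array lay well under the lowest wild-type array. The group values were 12.1 (SD 0.34) in Aire-deficient cells and 90.9 (SD 0.60) in wild-type cells, a log2 difference of -2.91 ± 0.38 (SE) with a limma adjusted p of 0.00473, or 0.000669 with the block. The other Gstm3 probe set, 97682_r_at, read 57.6, 27.1 and 24.2 in Aire-deficient cells and 55.2, 86.1 and 71.5 in wild-type cells, where Aire-deficient array 1 lay above wild-type array 1 (adjusted p = 0.237). The fall of Gstm3 therefore rests on 97681_f_at, and with 1 probe set per gene, chosen by mean signal, 97682_r_at stood for the gene and it was not called. Mu-class transcripts are close relatives, and the letter f marks a probe set whose design allows binding to several of them.

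Gstm1 and Gstm5 passed with the block alone. Gstm1 probe set 93543_f_at gave 92.6, 122 and 111 in Aire-deficient cells, against 209.7, 343 and 259.9 in wild-type cells, 2.46-fold lower without overlap (adjusted p = 0.0527, or 0.00976 with the block). For Gstm5, 100630_f_at gave 42.6, 34.7 and 39.4 in Aire-deficient cells and 67.8, 194 and 92.2 in wild-type cells (adjusted p = 0.1, or 0.0284 with the block). Wild-type array 2, the one with the high beta-actin ratio, was the highest for both. A probe set of Gstm5 of unique design, 100629_at, was dimmer, at 2.12, 3.23 and 3.82 in Aire-deficient cells and 7.63, 7.15 and 15.6 in wild-type cells, at least 1.71-fold lower (adjusted p = 0.177, or 0.0964 with the block). Its other probe sets, 100631_r_at and 161722_f_at, were too dim to be tested.

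The remaining mu-class probe sets varied more between arrays. Gstm6 probe set 104637_at read 15.6, 29.2 and 18.6 in Aire-deficient cells and 47, 23.7 and 80.5 in wild-type cells, so the groups overlapped (adjusted p = 0.282). Gstm2 probe set 161357_r_at gave 22.7, 21.9 and 16.5 in Aire-deficient cells, against 18.9, 29.7 and 11.6 in wild-type cells (adjusted p = 0.93), and the second Gstm1 probe set, 161633_r_at, 12.6, 11.2 and 2.37 in Aire-deficient cells, against 6, 16.5 and 11.8 in wild-type cells (0.734). In all, 9 of the 12 mu-class probe sets had a lower and 3 a higher mean in Aire-deficient cells, with a median log2 difference of -0.99.

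**Figure D3:**
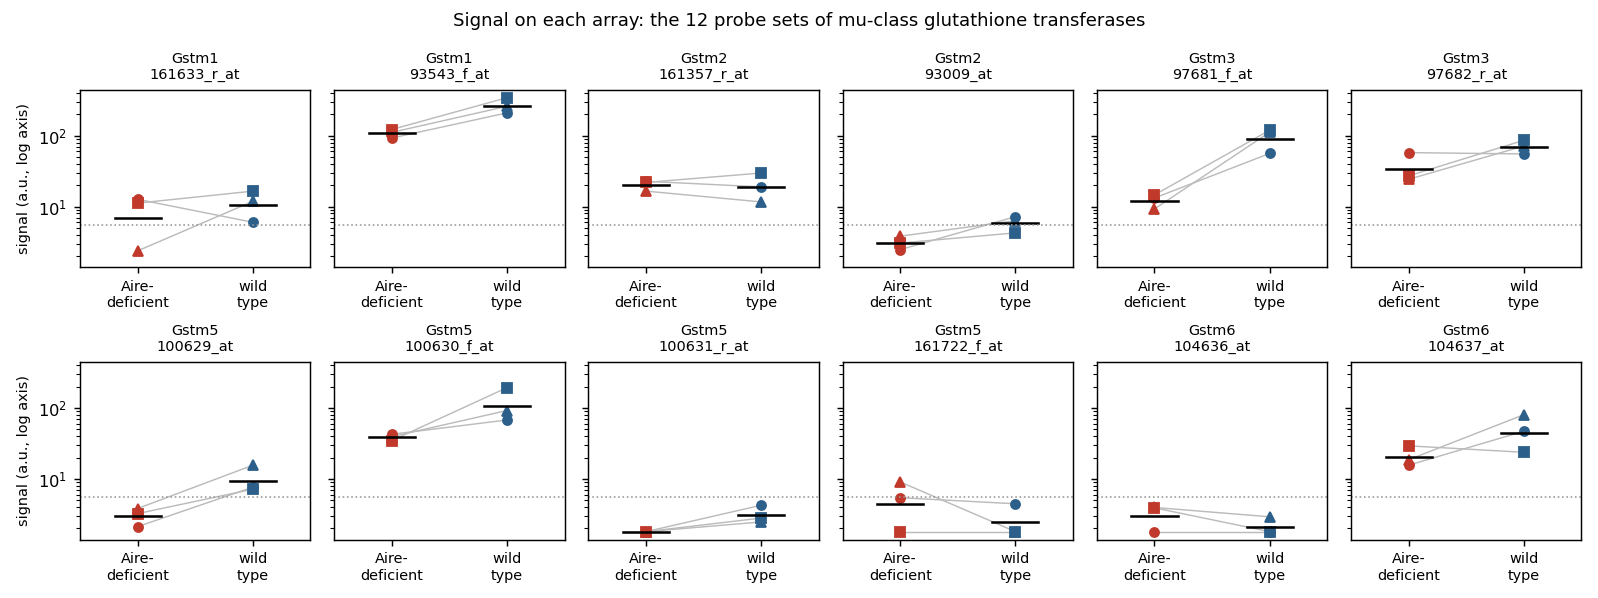
Signals (log axis, arbitrary units) of the 12 mu-class glutathione transferase probe sets, Aire-deficient arrays in red on the left and wild-type arrays in blue on the right of each panel; circles, squares and triangles are replicates 1, 2 and 3, grey lines join arrays of the same number, black bars are geometric means and the dotted line is the dim limit of 5.53. The groups are apart without overlap for 93543_f_at, 97681_f_at, 100629_at and 100630_f_at among the tested probe sets.

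Transferases of other classes also passed with the block. Gsta2, an alpha-class enzyme, measured 51.2, 35.6 and 25.1 in Aire-deficient cells and 119, 97.5 and 80.7 in wild-type cells. The groups were apart, at 2.73-fold lower (adjusted p = 0.065, or 0.00944 with the block). Gsta4, which conjugates the lipid peroxidation product hydroxynonenal, gave 12.8, 5 and 4.93 in Aire-deficient cells and 40.5, 12.4 and 12.2 in wild-type cells, where Aire-deficient array 1 lay just above the lower wild-type arrays (adjusted p = 0.269, or 0.0332 with the block). Gsto1, the omega-class enzyme that reduces dehydroascorbate, had array 1 highest in both groups as well, with 20.9, 10.4 and 15.8 in Aire-deficient cells, against 126, 25.4 and 33.2 in wild-type cells (adjusted p = 0.193, or 0.0177 with the block). Without wild-type array 1 its log2 difference was -0.95, against -1.65 with all arrays. For Gstk1, the kappa-class enzyme of mitochondria and peroxisomes, the values were 12.3, 11.1 and 7.83 in Aire-deficient cells and 14.9, 33.8 and 19.5 in wild-type cells, 2.1-fold apart with no overlap (adjusted p = 0.237). Other classes lay closer together. Gstp1, the pi-class enzyme of many epithelia, averaged 75.1 in Aire-deficient cells and 88.9 in wild-type cells (adjusted p = 0.757). For the theta class, Gstt1 averaged 15.8 in Aire-deficient cells and 27.3 in wild-type cells (0.328), and Gstt2 15.7 in Aire-deficient cells and 14.7 in wild-type cells (0.917). Gstz1, an enzyme of tyrosine breakdown, averaged 19.6 in Aire-deficient cells and 30.2 in wild-type cells (0.505), and the alpha-class Gsta3 5.61 in Aire-deficient cells and 7.93 in wild-type cells (0.702). The log2 difference of Gstp1 was -0.24 after quantile normalization and 0.04 on the values as deposited.

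The P450 families 1 to 3, many of whose members oxidise foreign compounds, held both P450 calls. Their 27 probe sets, with the retinoid and vitamin D enzymes set aside, had 12 tested members and a median log2 difference of -0.48 over all 27. Of the 12 tested, 2 were called lower, against 1.38% of all tested probe sets. One of these calls, Cyp1a2, had passed the filter through wild-type arrays alone. The start regions of the called genes, Cyp1a2 (GRCm38.p6 chr9:57683656-57683905, minus strand) and Cyp2b19 (chr7:26756892-26757141, plus strand), and of Cyp26a1 (chr19:37697558-37697807, plus strand), the P450 that passed in the other direction with the block, are shown from RefSeq as 250 bases, 5′ to 3′. Capitals mark the same motifs and, in Cyp26a1, a direct repeat of AGTTCA with 5 bases between the copies. AGTTCA is 1 spelling of the retinoic acid receptor half-site.
Cyp1a2: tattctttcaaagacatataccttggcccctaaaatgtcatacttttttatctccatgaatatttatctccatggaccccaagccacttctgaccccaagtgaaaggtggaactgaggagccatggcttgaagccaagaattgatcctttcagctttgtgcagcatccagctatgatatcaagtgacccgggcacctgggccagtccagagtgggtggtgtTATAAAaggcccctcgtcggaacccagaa
Cyp2b19: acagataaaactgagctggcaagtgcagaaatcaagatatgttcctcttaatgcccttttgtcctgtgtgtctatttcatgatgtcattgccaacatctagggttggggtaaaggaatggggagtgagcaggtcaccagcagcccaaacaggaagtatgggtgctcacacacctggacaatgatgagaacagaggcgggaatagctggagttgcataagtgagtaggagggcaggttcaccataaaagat
Cyp26a1: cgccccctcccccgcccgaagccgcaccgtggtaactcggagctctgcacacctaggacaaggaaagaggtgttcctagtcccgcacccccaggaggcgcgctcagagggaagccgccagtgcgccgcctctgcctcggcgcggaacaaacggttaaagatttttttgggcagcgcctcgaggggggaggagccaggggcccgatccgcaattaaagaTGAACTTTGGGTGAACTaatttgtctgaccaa
Cyp1a2 has a TATAAA at -29 to -24, and none of the searched letters occur in the Cyp2b19 window. The repeat in Cyp26a1 lies on the minus strand at -32 to -16, and 7 of 32851 RefSeq start windows hold this exact repeat, or 0.0213%. Other spellings of the half-site and other spacings were not searched, so this share holds for these letters alone and says nothing of the half-site at large.

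Cyp1a2, a liver enzyme that oxidises caffeine and aromatic amines and is induced through the aryl hydrocarbon receptor, fell to the floor of the signal range. It measured 1.8, 2.07 and 1.8 on the Aire-deficient arrays, against 8.83, 34.1 and 25.7 on the wild-type arrays. The Aire-deficient values lie at or near the floor of 1.8, which sets the fitted difference, so the fall is given as at least 3.57-fold (log2 difference -3.39 ± 0.56, adjusted p = 0.0157, or 0.00427 with the block). Wild-type array 1 was the lowest of its group. The call was lost when wild-type array 2 was left out (adjusted p = 0.103), when array 3 of that group was left out (0.0926) and with the floor at the 40th percentile (0.0625). Its neighbour on chromosome 9, Cyp1a1, was too dim to be tested, with a highest signal of 6.4 on any array for either probe set. Cyp1b1, a relative found outside the liver, gave 1.8, 1.95 and 1.8 in Aire-deficient cells, against 7, 6.06 and 6.73 in wild-type cells, at least 1.19-fold lower (adjusted p = 0.207); its other probe set, 161368_r_at, lay at 2.58, 1.8 and 1.8 in Aire-deficient cells and 1.8, 1.8 and 1.8 in wild-type cells.

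Cyp2b19, known in mice as an arachidonic acid epoxygenase of keratinocytes, gave 18.6, 15.7 and 17.3 in Aire-deficient cells, against 46.6, 73.3 and 42.3 in wild-type cells. The Aire-deficient arrays lay close together and below each wild-type array. The group values were 17.1 (SD 0.13) in Aire-deficient and 52.5 (SD 0.42) in wild-type cells, and the fall was 3.06-fold (log2 difference -1.61 ± 0.33, adjusted p = 0.0358, or 0.0112 with the block). Leaving out any array ended the call, with adjusted p from 0.0731 without wild-type array 1 to 0.179 without Aire-deficient array 2, while the log2 difference stayed between -1.77 and -1.4. Without a filter on dim probe sets it was not called either (0.0613). Its relative Cyp2b10, a liver enzyme induced by phenobarbital, gave 1.8, 9.63 and 5.23 in Aire-deficient cells and 8.48, 15.6 and 6.84 in wild-type cells, with overlap (adjusted p = 0.48).

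Cyp2e1, the ethanol-inducible liver enzyme, read 6.43, 7.32 and 2.27 in Aire-deficient cells and 10.5, 10.8 and 11.4 in wild-type cells. The groups were apart by 2.3-fold without passing the test (adjusted p = 0.319, or 0.19 with the block). Cyp2f2, an enzyme of airway club cells, averaged 10.8 in Aire-deficient and 18.9 in wild-type cells (adjusted p = 0.359). Cyp3a13 stood at 22.5 in Aire-deficient cells and 22.2 in wild-type cells (0.988), and Cyp2c38, measured by a probe set of shared design, at 6.81 in Aire-deficient cells and 3.08 in wild-type cells (0.524).

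Fatty acid hydroxylases of the Cyp4 family were represented by 7 probe sets with a median log2 difference of -0.62. Cyp4v3, the mouse counterpart of human CYP4V2, gave 42.1, 42 and 38.6 in Aire-deficient cells, against 114, 156 and 67.6 in wild-type cells. The 3 Aire-deficient arrays were nearly alike, and the difference was 2.61-fold (adjusted p = 0.0821, or 0.0177 with the block). Cyp4b1, an enzyme of lung, measured 16.8, 2.6 and 7.53 in Aire-deficient cells and 17.2, 27 and 20.4 in wild-type cells (adjusted p = 0.231, or 0.0962 with the block). Aire-deficient array 1 nearly reached the lowest wild-type array for this gene.

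The steroidogenic P450 enzymes did not pass, with or without the block. Cyp11a1, which cleaves the side chain of cholesterol to start steroid synthesis, gave 2.7, 4.82 and 2.98 in Aire-deficient cells and 9.55, 18.8 and 7.5 in wild-type cells, at least 2-fold lower with no overlap (adjusted p = 0.152, or 0.0636 with the block). Cyp21a1, the adrenal 21-hydroxylase, measured 21.2, 18.1 and 15.2 in Aire-deficient cells, against 22.4, 24.3 and 21.2 in wild-type cells (0.683). Cyp17a1, needed for cortisol and androgens in humans, measured 24.9, 15.3 and 5.68 in Aire-deficient cells, against 10.1, 9.85 and 14.1 in wild-type cells (0.893), with the highest value on Aire-deficient array 1.

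Enzymes of cholesterol, bile acids, vitamin D and retinoids lay on both sides of 0. Cyp51, which demethylates lanosterol in cholesterol synthesis, averaged 15.2 in Aire-deficient and 24.8 in wild-type cells (adjusted p = 0.373). Cyp7b1, an oxysterol hydroxylase, averaged 10.9 in Aire-deficient cells and 8.66 in wild-type cells on 1 probe set (0.745) and 12.4 in Aire-deficient cells and 10.2 in wild-type cells on the other (0.807). The bile acid enzyme Cyp7a1 lay at the floor of 1.8 on all 6 arrays. Cyp8b1, another bile acid enzyme, was not tested, at 2.02, 1.8 and 1.8 in Aire-deficient cells and 8.92, 14.3 and 3.65 in wild-type cells.

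Cyp26a1, which breaks down retinoic acid, was the sole member higher by 2-fold without overlap. The signals were 52.4, 63.9 and 74.7 in Aire-deficient cells, against 13.4, 21.4 and 36.1 in wild-type cells. Each Aire-deficient array lay above each wild-type array, and the wild-type arrays spread more (SD 0.26 in Aire-deficient and 0.72 in wild-type cells). It was 2.89-fold higher (log2 difference 1.53 ± 0.39), with an adjusted p of 0.0843 in limma and 0.0117 with the block, or 0.0429 on the values as deposited. Cyp27b1, which activates vitamin D, gave 3.15, 7.07 and 6.8 in Aire-deficient cells and 3.8, 1.8 and 11.7 in wild-type cells (0.893), and Cyp24a1, which inactivates it, was too dim to be tested.

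Among the other oxidising and cleaving enzymes, Fmo1 fell. Fmo1, a flavin monooxygenase that oxidises nitrogen- and sulfur-containing compounds, measured 7.28, 9.55 and 9.15 in Aire-deficient cells, against 21.5, 58.1 and 30.0 in wild-type cells. All Aire-deficient arrays lay under all wild-type arrays, and wild-type array 2 was the highest. The fall was 3.89-fold (log2 difference -1.96 ± 0.40, adjusted p = 0.0375, or 0.00602 with the block). It was kept without wild-type array 1 (adjusted p = 0.0393), whereas leaving out any of the other 5 arrays ended the call, with adjusted p from 0.0894 without wild-type array 2 to 0.124 without Aire-deficient array 2. Without a filter on dim probe sets Fmo1 was not called (0.0926). Fmo5 gave 13.8, 17.6 and 17.1 in Aire-deficient cells and 16.9, 15.4 and 17.1 in wild-type cells (adjusted p = 0.973), and its second probe set, 162259_f_at, was too dim.

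Carboxylesterases, which hydrolyse esters in liver and gut, included Ces2g at 69.4, 47.6 and 67.8 in Aire-deficient cells and 164, 169 and 115 in wild-type cells. The groups were apart by 2.42-fold (adjusted p = 0.0673, or 0.0222 with the block). Ces1c, an esterase of plasma in mice, gave 4.55, 1.8 and 1.8 in Aire-deficient cells, against 10.8, 16.7 and 6.84 in wild-type cells, at least 1.94-fold lower (adjusted p = 0.118, or 0.0584 with the block). Its neighbour on chromosome 8, Ces1d, a triacylglycerol hydrolase, averaged 127 in Aire-deficient and 167 in wild-type cells on 101539_f_at (0.591) and 60.4 in Aire-deficient cells and 68.7 in wild-type cells on 101538_i_at (0.826). The last log2 difference was -0.19 after quantile normalization and 0.08 on the values as deposited. Ces3a was not tested, at 2.25, 4.35 and 2.58 in Aire-deficient cells and 3.72, 9.75 and 8.6 in wild-type cells.

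Of the glucuronosyltransferases, Ugt2b34 measured 1.8, 1.8 and 5.33 in Aire-deficient cells, against 17.6, 10.2 and 10.2 in wild-type cells, at least 2.22-fold lower (adjusted p = 0.0859, or 0.046 with the block). The related Ugt2b5 gave 7.07, 3.23 and 1.8 in Aire-deficient cells and 9.69, 10.6 and 3.25 in wild-type cells on a probe set of shared design, with overlap (0.559). Ugt8a, which makes the galactolipids of myelin, was too dim to be tested. Sulfotransferases were mostly dim: 8 of 10 probe sets were not tested and 5 lay under the limit on every array. Sult2b1, which sulfates cholesterol in skin, gave 15.7, 7.66 and 7.53 in Aire-deficient cells and 11.4, 9.35 and 8.6 in wild-type cells (0.998), and Sult1d1, a catecholamine sulfotransferase of mice, 5.62, 1.8 and 3.52 in Aire-deficient cells, against 8.48, 5.75 and 5.63 in wild-type cells (0.505).

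**Figure D4:**
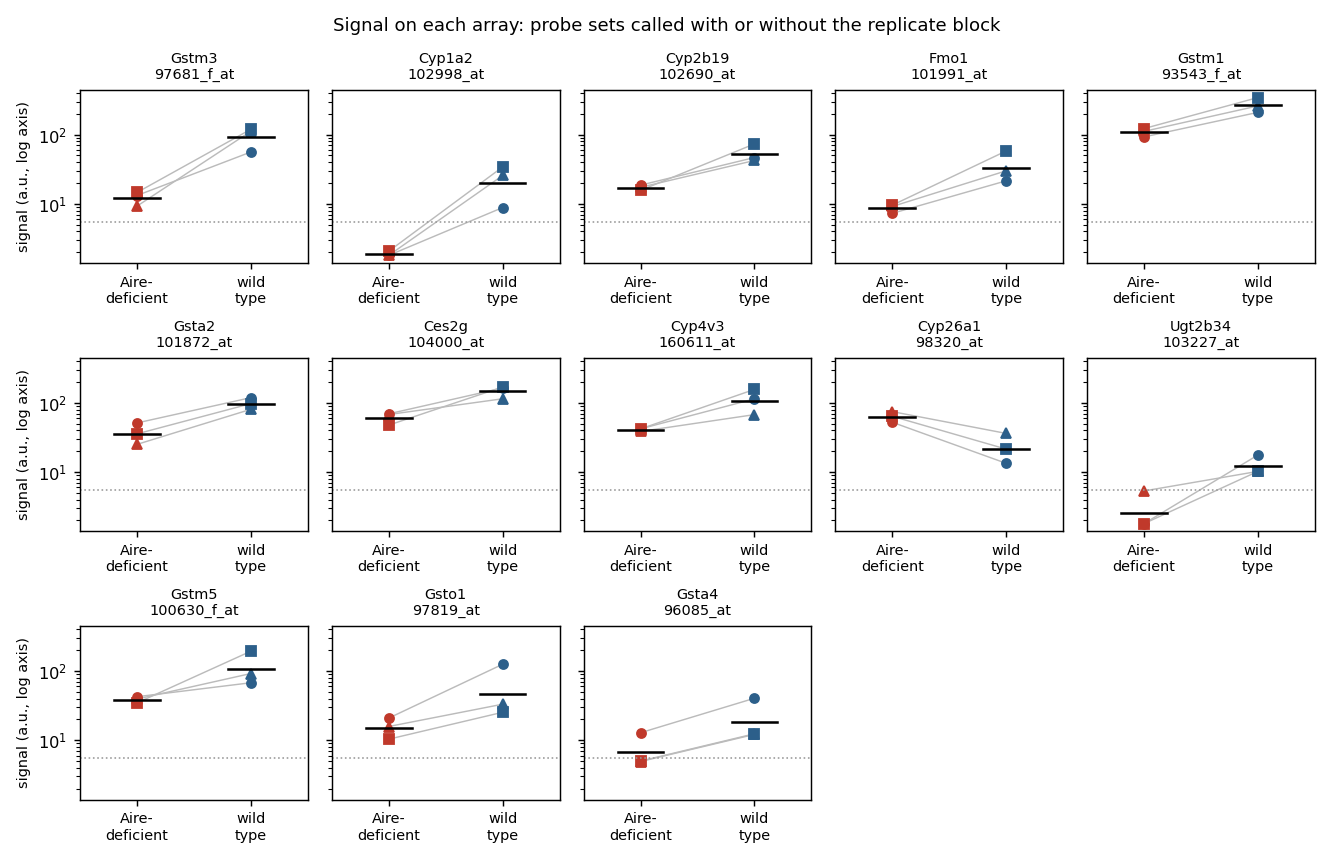
Signals (log axis, arbitrary units) of the 13 probe sets called in the limma fit or only with the replicate block, in order of p, Aire-deficient arrays in red on the left and wild-type arrays in blue on the right; circles, squares and triangles are replicates 1, 2 and 3, grey lines join arrays of the same number, black bars are geometric means and the dotted line is the dim limit of 5.53. In 12 panels the Aire-deficient end of every line is the lower one, and in that of Cyp26a1 it is the higher one.

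Aldehyde dehydrogenases had 0 called members of 13 tested, with or without the block. Over all tested probe sets 1.38% were called lower and 0.348% higher, or 3.37% and 1.93% with the block. A count of 0 of 13 does not set the family apart from these shares. Aldh2, the mitochondrial enzyme that oxidises acetaldehyde, was read by 3 probe sets. The first, 161997_f_at, gave 29.5, 18.8 and 30.5 in Aire-deficient cells and 74.2, 48.8 and 43.5 in wild-type cells, 2.1-fold apart without overlap (adjusted p = 0.175, or 0.0567 with the block). On 96058_s_at the group values were 14.5 in Aire-deficient and 24.2 in wild-type cells (0.384), and on 96057_at, where the groups overlapped, 9.26 in Aire-deficient and 12.1 in wild-type cells (0.765).

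The other aldehyde dehydrogenases were spread about 0. Aldh1a7 measured 3.15, 5.53 and 6.68 in Aire-deficient cells and 11.8, 7.48 and 16.5 in wild-type cells (adjusted p = 0.275), and Aldh3a1, the abundant enzyme of the cornea, 5.32, 5.77 and 5.23 in Aire-deficient cells and 14.3, 6.7 and 12.8 in wild-type cells (0.338). The groups were apart for both genes on these probe sets, by 1.97-fold for Aldh3a1. The other Aldh3a1 probe set, 162331_f_at, too dim to test, gave 1.8, 5.87 and 1.8 in Aire-deficient cells and 1.8, 1.8 and 1.8 in wild-type cells. Aldh3a2, which oxidises fatty aldehydes, averaged 51.4 in Aire-deficient and 45.1 in wild-type cells on 99559_at (0.877) and 22.2 in Aire-deficient cells and 22.8 in wild-type cells on 161401_f_at (0.976). Aldh7a1, an enzyme of lysine breakdown, averaged 26.7 in Aire-deficient cells and 21.9 in wild-type cells on 97450_s_at (0.768). Of the enzymes that make retinoic acid, Aldh1a3 averaged 12.4 in Aire-deficient and 14.4 in wild-type cells (0.809), Aldh1a2 lay at the floor on all 6 arrays, and 1 of the probe sets of Aldh1a1 was tested, at 5.22 in Aire-deficient cells and 3.46 in wild-type cells (0.794). The untested one of Aldh1a1, 100068_at, lay on the other side, at 3.43 in Aire-deficient cells and 6.88 in wild-type cells, with overlap.

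Of the alcohol dehydrogenases, clustered on chromosome 3, 4 of 6 probe sets were tested and 0 were called. So few tested probe sets cannot set the family apart from probe sets at large. Adh7, an enzyme of stomach and other epithelia that also oxidises retinol, gave 8.16, 9.42 and 9.38 in Aire-deficient cells, against 16.3, 21.6 and 15.1 in wild-type cells, 1.95-fold lower without overlap (adjusted p = 0.206, or 0.121 with the block). Adh1, the ethanol-oxidising enzyme of liver, gave 11.9, 2.35 and 1.8 in Aire-deficient cells, against 27.4, 7.03 and 9.85 in wild-type cells, with overlap (0.325, or 0.0549 with the block), where array 1 was the highest in both groups. Adh5, which oxidises formaldehyde bound to glutathione in most cells, averaged 74.5 in Aire-deficient and 70.9 in wild-type cells on 95765_at (0.948). On 98625_s_at it averaged 52.9 in Aire-deficient cells and 34.3 in wild-type cells (0.693), and wild-type array 2 was the lowest there, at 11.1. Without that array the log2 difference was -0.19, against 0.63 with all arrays.

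Partners of these enzymes were tested in the same fit. From 6 lists of receptors, electron donors, other metabolic enzymes, transporters and stress-response genes, 97 probe sets of 78 genes were on the array, and 67 were tested. Of these 0 fell and 1 rose in the limma fit, against 1.38% and 0.348% of all tested probe sets, and with the block 1 fell and 2 rose, against 3.37% and 1.93%. Such small counts do not set the partners apart from probe sets at large. At any size 57 of the 97 were lower and 40 higher, with a median log2 difference of -0.08. The difference between these lists and the 8 families was not tested.

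Receptors and transcription regulators of detoxification genes, 31 probe sets of 21 genes, had a median of 0.00. Of the 18 tested 0 were called with or without the block, which does not depart from the shares over all tested probe sets. Cebpa, a liver and fat cell regulator, averaged 31.2 in Aire-deficient and 51.6 in wild-type cells (adjusted p = 0.377), and Nfe2l2, which drives the antioxidant response, 52.2 in Aire-deficient cells and 34 in wild-type cells (0.498). Its partner Mafg averaged 9.13 in Aire-deficient cells and 4.14 in wild-type cells on the probe set 93406_at (0.429) and 40.2 in Aire-deficient cells and 37.2 in wild-type cells on 96147_at (0.92). All 6 probe sets of electron donors, of 4 genes, were lower by some amount, with a median of -0.44 and 0 calls among 5 tested. The log2 difference was only -0.06 on Cyb5b 103619_at. Fdx1 160062_i_at, not tested, lay at the floor except on wild-type array 2 (2.98). On 92587_at Fdx1, which feeds mitochondrial P450 enzymes, measured 86.2, 94.8 and 94.5 in Aire-deficient cells and 165, 145 and 126 in wild-type cells (0.297). Cyb5a and Cyb5r3, which pass electrons to microsomal enzymes, averaged 89.1 and 6.42 in Aire-deficient cells, against 129.7 and 12.6 in wild-type cells (0.521 and 0.624).

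Maoa, the mitochondrial monoamine oxidase, was the gene of these lists that rose in the limma fit. It gave 168, 94 and 81 in Aire-deficient cells, against 26.7, 10.9 and 16.8 in wild-type cells, 6.4-fold higher (adjusted p = 0.0107, or 0.0565 without wild-type array 3). This was the probe set 93749_at. Of its other probe sets, both too dim to test, 162294_f_at gave 2.02, 1.8 and 1.8 in Aire-deficient cells, against 3.05, 3.25 and 3.25 in wild-type cells, lower without overlap, and 161714_f_at gave 2.7, 1.8 and 1.8 in Aire-deficient cells, against 1.8, 1.8 and 1.8 in wild-type cells. With the block Akr1c13, an aldo-keto reductase, rose as well, at 158, 95.9 and 47.1 in Aire-deficient cells and 87.7, 22 and 27.5 in wild-type cells (adjusted p = 0.343, or 0.0414 with the block), and Gpx3, the plasma glutathione peroxidase, fell, at 6.87, 5.77 and 7.32 in Aire-deficient cells, against 11.7, 23.2 and 34 in wild-type cells (0.0843, or 0.0271 with the block). Without wild-type array 1, Gpx3 was called without the block too (0.0414). The microsomal transferase Mgst1 averaged 16.7 in Aire-deficient and 32.6 in wild-type cells (0.353), the methyltransferases Inmt and Tpmt 2.42 and 8.2 in Aire-deficient cells against 8.33 and 3.39 in wild-type cells (0.237 and 0.289), and the reductase Akr1b8 6.85 in Aire-deficient cells, against 13.2 in wild-type cells (0.252). Of 9 transporter probe sets Abcc3 averaged 46 in Aire-deficient cells and 79.7 in wild-type cells (0.412), Abcg2 8.39 in Aire-deficient cells and 13.7 in wild-type cells (0.454), and Abcb1a 9.78 in Aire-deficient cells and 6.61 in wild-type cells (0.767). Among stress-response genes Txnrd1, thioredoxin reductase, averaged 16.5 in Aire-deficient and 28.2 in wild-type cells (0.325), and catalase, Cat, 29.4 in Aire-deficient cells and 16.3 in wild-type cells on the probe set 160479_at (0.348). On the other, 161877_f_at, Cat averaged 9.58 in Aire-deficient cells and 12.5 in wild-type cells (0.808).

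**Figure D5:**
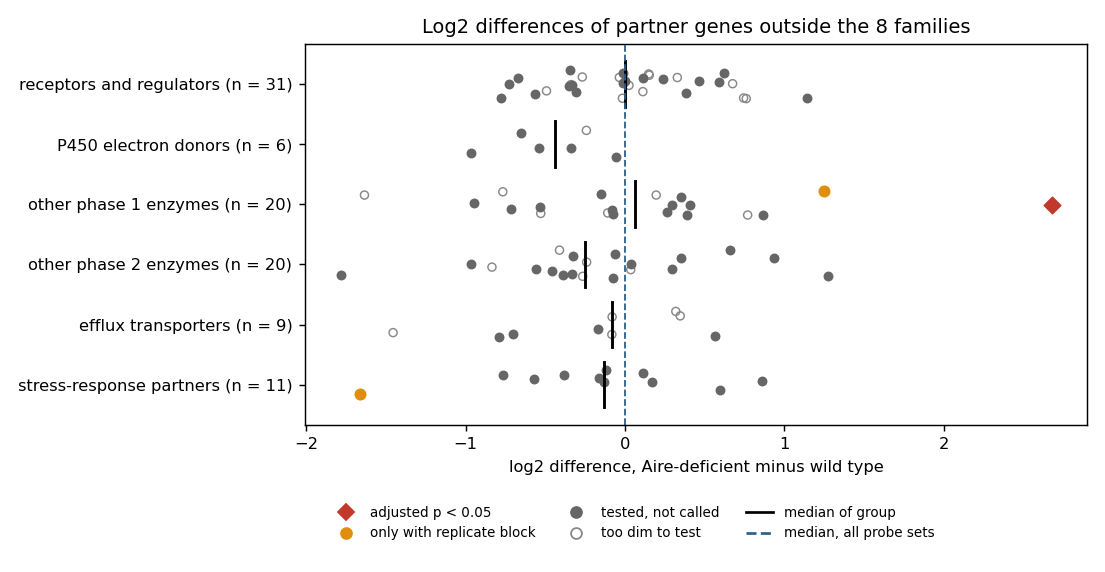
Log2 differences (Aire-deficient minus wild type, horizontal axis) of 97 probe sets of partner genes outside the 8 families, by list, with black bars at the list medians and a dashed line at 0.00, the median of all probe sets. Red diamonds, orange points and open circles mark calls in the limma fit, calls only with the replicate block and probe sets too dim to test; Maoa is the red diamond at 2.68, and the median of the receptors and regulators lies at 0.00.

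Members shared some features that the symbols did not fix. Probe sets of unique design, 81 of the 115, had a median log2 difference of -0.52, the 17 of the f design -0.39, the 9 of the r design -0.04 and the 6 of the s design 0.15. Start windows of 250 bases were at hand for 69 of the 88 genes, 80 windows in all, and a TATAAA stood in 22 of these, or 27.5%, against 12.4% of 32851 windows. GCGTG was found in 22.5% of the member windows, against 28.2% of all, and TGACNNNGC in 6.25%, against 10.2%. A member window held a median of 3 CG dinucleotides, against 6 over all windows, and the windows printed above held 3 for Cyp1a2, 1 for Cyp2b19, 4 for Gstm3, 8 for Gstm1, 13 for Gstm5 and 20 for Cyp26a1. Windows of neighbouring starts overlap, matches are descriptions of these letters, and no factor was measured.

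Among the 48 members too dim to test, 6, or 12.5%, were lower in Aire-deficient cells without overlap, against 4.13% of the 4654 untested probe sets, and 0 were higher, against 4.1%. Besides Cyp8b1 these were Cyp2d26, a liver enzyme, at 1.8, 1.8 and 1.8 in Aire-deficient cells and 6.9, 7.53 and 3.13 in wild-type cells, Sult1b1 at 1.8, 1.8 and 1.8 in Aire-deficient cells and 5.01, 3.15 and 5.63 in wild-type cells, Gstm2 on 93009_at at 2.47, 3.05 and 3.82 in Aire-deficient cells and 7.2, 4.25 and 6.32 in wild-type cells, Gstm5 on 100631_r_at at 1.8, 1.8 and 1.8 in Aire-deficient cells and 4.25, 2.8 and 2.47 in wild-type cells, and Cyp24a1 on 93435_at at 3.25, 1.8 and 1.8 in Aire-deficient cells and 5.01, 3.52 and 5.87 in wild-type cells. Cyp3a11, a major drug-oxidising enzyme of mouse liver, gave 1.8, 1.8 and 2.47 in Aire-deficient cells and 12.1, 8.89 and 2.15 in wild-type cells, where wild-type array 3 lay within the range of the Aire-deficient arrays. These signals are at or near the floor and have no fold.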

How the data were processed

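The deposited values are 1-colour intensity values per probe set on a linear scale. How the background was corrected and the arrays were scaled is not stated in the labels. Of 12488 probe sets 66 controls were left out. Genes were named from the platform annotation (10833 probe sets with 1 gene, 396 with several, 1193 with none), and 10817 matched RefSeq (GRCm38.p6) by Entrez identifier.

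The 2% trimmed means of the arrays ran from 19.6 to 26.9, so quantile normalization was applied, signals were raised to the pooled 20th percentile (1.8) and log2 was taken. The 7768 probe sets that exceeded the 40th percentile of all signals on 3 or more of the 6 arrays were fitted with limma 3.58.1 (R 4.3.3; empirical Bayes with a variance trend, two-sided, Benjamini-Hochberg adjustment over all of them), which was tested on simulated data. "At least" folds set the wild-type mean against the dim limit. An f, r, s or i in a probe set's name marks a design other than unique.

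The labels number the arrays 1 to 3 in both groups. Same-numbered arrays had correlations of 0.37, 0.20 and 0.19 between their departures from the mean of their group, and arrays of unlike number -0.25 to 0.068. Departures within a group cancel out, so positive values for like numbers bring negative ones for unlike numbers. The labels do not say what arrays of the same number share, and a pairing rests on these correlations alone. The value with that number as a block is given where it changes a call. P-values measure the spread between these pools, and the number of arrays limits the precision.

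Named in full were probe sets called with or without the block, those 2-fold apart without overlap, in each family the tested ones with the smallest p and the brightest, other probe sets of those genes, and in each partner list those with the smallest p. Other members were added after their values were seen. Members and lists were chosen with earlier results of these data known. Alternatives covered normalization, floor, filter, variance model, array weights, pairing, 3' bias, 1 probe set per gene and leaving out each array.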

Additional observations from a re-analysis of the deposited data

How the results depend on the processing

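The count of lower members was 4, with 2 when no filter was set, 8 with array weights, 12 with the replicate block, 8 with the block on values as deposited and 1 to 3 when single arrays were left out. Higher members numbered 0, or 1 on values as deposited, with the block, and with both. Lower partner probe sets numbered 0, or 1 with array weights, with the block and with the block on values as deposited, and 0 to 1 without single arrays; higher ones numbered 1, or 2 with the block and with the block on values as deposited, and 0 to 1 without single arrays. Over all tested probe sets 107 were lower, with 53 without a filter, 166 with array weights, 262 with the block, 196 with the block on values as deposited and 25 to 78 without single arrays. The 27 higher ones became 71 on values as deposited, 55 after median scaling, 14 without a filter, 72 with array weights, 150 with the block, 221 with the block on values as deposited and 2 to 16 without single arrays. The block changed no call of a named probe set other than those given above. The block without both arrays numbered 2 and the block on values as deposited were chosen after seeing the data. Both unscaled and median-scaled values moved the median log2 difference of all tested probe sets to 0.17, against 0.05 after quantile normalization.

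None of the 4 called members reversed under any alternative run. The log2 differences that did were uncalled, and the cause was not tested. On values as deposited, after median scaling and with the block on values as deposited, Aldh3a2 161401_f_at (-0.04) was 0.10 in each, Ces1d 101538_i_at (-0.19) 0.08, 0.09 and 0.08, Fmo5 (-0.04) 0.04 in each and Gstp1 (-0.24) 0.04 in each. With array weights Adh5 95765_at (0.07) was -0.17, Adh5 98625_s_at (0.63) -0.01, Aldh3a2 161401_f_at 0.12, Aldh3a2 99559_at (0.19) -0.11, Aldh7a1 97449_at (0.45) -0.13, Aldh7a1 97450_s_at (0.29) -0.02 and Abcb1a (0.57) -0.02. With the 3' bias covariate these were -0.19 for both Adh5 probe sets, 0.08 for Aldh3a2 161401_f_at, -0.34 for Aldh3a2 99559_at, -0.28 for Aldh7a1 97449_at and -0.37 for Abcb1a. With the block and without both arrays numbered 2, Adh5 95765_at was -0.17, Aldh3a2 161401_f_at 0.28, Aldh3a2 99559_at -0.13, Aldh7a1 97449_at -0.27, Sult2b1 0.13 and Abcb1a -0.47. Without single arrays the ranges were -0.23 to 0.27 for Adh5 95765_at, -0.19 to 1.09 for Adh5 98625_s_at, -0.69 to 0.12 for Aldh2 96057_at, -0.33 to 0.19 for Aldh3a2 161401_f_at, -0.24 to 0.50 for Aldh3a2 99559_at, -0.38 to 0.96 for Aldh7a1 97449_at, -0.10 to 0.07 for Fmo5, -1.04 to 0.17 for Gstm1 161633_r_at, -0.35 to 0.17 for Sult2b1 and -0.38 to 1.16 for Abcb1a.

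The medians of tested probe sets changed sign for Sult without a filter (0.11, against -0.49), for Adh without a filter (0.15) and with the stricter filter (0.07, against -0.45), and for Aldh without wild-type array 1 (0.03, against -0.18). Signals near background limit what can be said of 48 of 115 members.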
